A study of Mus musculus with 12 samples.

Results

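The transcripts described here were those of 10 genes that govern the passage of a cell from G1 into S phase. They were the D-type cyclins *Ccnd1*, *Ccnd2* and *Ccnd3*, the kinases *Cdk4* and *Cdk6* that these cyclins activate, the E-type cyclins *Ccne1* and *Ccne2*, the Cip/Kip inhibitors *Cdkn1a* (p21) and *Cdkn1b* (p27), and *Myc*, a transcription factor of growing cells. The genes were chosen by name and by their role in the cell cycle, with earlier results of these data known. All 10 were found among the 24532 genes of the deposited table and passed the filter on low counts. RNA-seq was conducted on whole livers of male C57BL/6 mice in 4 groups of 3 livers each. WT mice were *Ahr* fl/fl littermates without Cre, and *Ahr* HKO mice carried the same floxed alleles with Alb-Cre, a Cre driven by the albumin promoter that acts in hepatocytes and leaves other liver cells with the receptor. Mice were 10 to 12 weeks old at the start and received either a Lieber-DeCarli liquid diet with 5% ethanol by volume or its isocaloric control for 5 weeks. The groups are named WT-con, WT-EtOH, HKO-con and HKO-EtOH, as labelled. The layout asks how ethanol feeding changed these genes in each genotype, how the genotypes differed on each diet, and whether the diet difference depended on the genotype.

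In quiescent hepatocytes, D-type cyclins are low and rise when growth factors, cytokines or loss of tissue call the cells back into the cycle. Cyclin D bound to CDK4 or CDK6 phosphorylates the retinoblastoma protein, which releases E2F factors, and these induce the E-type cyclins and the enzymes of DNA replication. p21 and p27 bind cyclin-CDK complexes and restrain them, and p21 is a classical target of p53 that is induced by many stresses. In the liver, *Ccnd1* and *Myc* belong to the genes that respond early after partial hepatectomy. AhR, the ligand-activated receptor deleted in the HKO mice, pairs with ARNT and binds DNA through a short core sequence, and Myc pairs with MAX and binds the E-box.

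Promoter sequences are shown for *Cdkn1a*, the gene with the largest difference between groups, and for *Cdk4*, whose upstream window was rich in E-boxes. RefSeq (GRCm38.p6) gave the 250 bases before a transcription start for 6 of the 10 genes in 8 windows, and *Ccnd1*, *Ccnd2*, *Ccne2* and *Myc* had no entry. *Cdkn1a* had a distal window at chr17:29090729-29090978 and a proximal window at chr17:29093519-29093768, and the *Cdk4* window was at chr10:127063285-127063534. All 3 windows lie on the plus strand and end at the base before the start. Capitals mark GCGTG, the core of the AhR site, or CACGTG, the E-box, each searched on both strands. No base belonged to matches of both motifs.
Cdkn1a distal: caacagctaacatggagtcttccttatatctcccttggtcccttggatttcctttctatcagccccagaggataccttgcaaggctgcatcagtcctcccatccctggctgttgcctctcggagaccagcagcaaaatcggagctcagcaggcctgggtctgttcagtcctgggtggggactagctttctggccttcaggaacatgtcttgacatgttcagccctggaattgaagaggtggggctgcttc
Cdkn1a proximal: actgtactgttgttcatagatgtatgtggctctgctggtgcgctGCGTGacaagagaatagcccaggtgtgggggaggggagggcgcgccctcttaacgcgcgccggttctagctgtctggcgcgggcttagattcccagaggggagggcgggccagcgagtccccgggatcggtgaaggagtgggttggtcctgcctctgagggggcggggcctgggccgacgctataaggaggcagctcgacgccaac
Cdk4: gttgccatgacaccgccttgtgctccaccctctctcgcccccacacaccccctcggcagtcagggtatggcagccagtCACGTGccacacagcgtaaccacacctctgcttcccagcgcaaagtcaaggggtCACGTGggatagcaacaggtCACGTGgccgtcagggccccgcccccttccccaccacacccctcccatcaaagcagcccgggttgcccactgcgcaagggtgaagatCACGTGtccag

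The distal *Cdkn1a* window held neither motif, and the proximal window held 1 GCGTG, 206 bases before the start. The *Cdk4* window held 4 copies of CACGTG, 172, 118, 98 and 11 bases before the start. Of all 32851 windows of the same length, 28.2% held GCGTG and 6.02% held CACGTG, whereas 4 or more copies of CACGTG stood in 7 windows (0.0213%). Among the 8 windows of the cell cycle genes, 5 held GCGTG and 2 held CACGTG. A match describes the letters of the window and shows no binding.

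The libraries held 46306518 to 74336255 reads on genes, so that a count of 3 corresponded to 0.0425 to 0.0676 CPM (counts scaled to library size, with TMM factors) in a single library. No pair of libraries was identical. Principal component analysis placed the 3 HKO-con livers apart from the other 9 along the first component (29.4% of the variance). The targeted gene did not follow the labels. *Ahr* was at 20.1, 16.6 and 18.3 CPM in WT-con, 30.5, 20.8 and 23.4 in WT-EtOH, 65.5, 41.3 and 63.3 in HKO-con, and 41.8, 32.1 and 24.7 in HKO-EtOH. It was higher on the control diet in the livers labelled *Ahr* HKO (log2 fold change (FC) 1.63 ± 0.187 SE, adjusted *P* = 0.00167). Reads were summed over the whole gene, so the deleted exon 2 could not be looked at by itself. *Cyp1a2*, an AhR target, was lower in the livers labelled *Ahr* HKO on the control diet (log2 FC −1.67, adjusted *P* = 0.0191) and on ethanol (log2 FC −0.73, adjusted *P* = 0.0457). *Cyp1a1*, another target, was higher in the livers labelled *Ahr* HKO on the control diet (log2 FC 1.5, adjusted *P* = 0.0458). HKO-con and HKO-EtOH therefore stand for the labels throughout. The 10 hepatocyte markers, *Alb* and *Apoa1* among them, summed to between 112000 and 169000 CPM in every group. Single markers differed at an edgeR adjusted *P* under 0.05. *Apoa1* fell under ethanol in WT (log2 FC −1.09). Under ethanol in *Ahr* HKO *Ttr* rose (0.81) and *Fgb* fell (−2.04). *Fgb* (1.36) and *Hnf4a* (0.97) were higher in HKO-con than in WT-con, and none differed between the genotypes on ethanol.

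The 10 genes did not move as a block. *P* values below came from the edgeR quasi-likelihood test with Benjamini-Hochberg adjustment over 14038 genes, and a gene was called at an adjusted *P* under 0.05. Under ethanol in WT, 0 of the 10 genes were called, where 8.72% of all tested genes were. An unadjusted *P* under 0.05 was found for 2 of the 10, against 3665 of the 14038 tested genes. DESeq2, run as an alternative, called 2 of the 10 in that comparison, where it also called more of all genes than edgeR did. Ethanol against control diet in *Ahr* HKO gave 2 calls, *Ccnd1* (lower) and *Ccnd3* (higher), beside a background of 31.2%. *Ahr* HKO against WT on the control diet gave 1 call, *Cdkn1a* (higher), beside 29.7%. *Ahr* HKO against WT on ethanol gave 1 call, *Ccnd1* (lower), beside 1.06%. The interaction, the diet difference in *Ahr* HKO minus that in WT, gave 2 calls, *Ccnd1* and *Cdkn1a*, beside 22.3%. The called share of the 10 genes was below the background in 4 of these comparisons and above it between the genotypes on ethanol, where 149 genes were called in all. By direction, 4.24% of tested genes rose and 4.48% fell under ethanol in WT, 15% and 16.1% in *Ahr* HKO, 15.3% were higher and 14.4% lower in HKO-con than in WT-con, 0.684% and 0.378% in HKO-EtOH than in WT-EtOH, and 11.2% and 11.1% had a positive or negative interaction. The livers of the groups did not overlap for 3 of the 10 genes under ethanol in WT (32.9% of all genes), 3 under ethanol in *Ahr* HKO (49.8%), 1 between the genotypes on the control diet (47.3%) and 3 between them on ethanol (27.9%). The median log2 FC over the 10 genes ranged from −0.0267 to 0.2 across the 5 comparisons. Comparisons that share a group share its 3 livers.

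**Figure D1:**
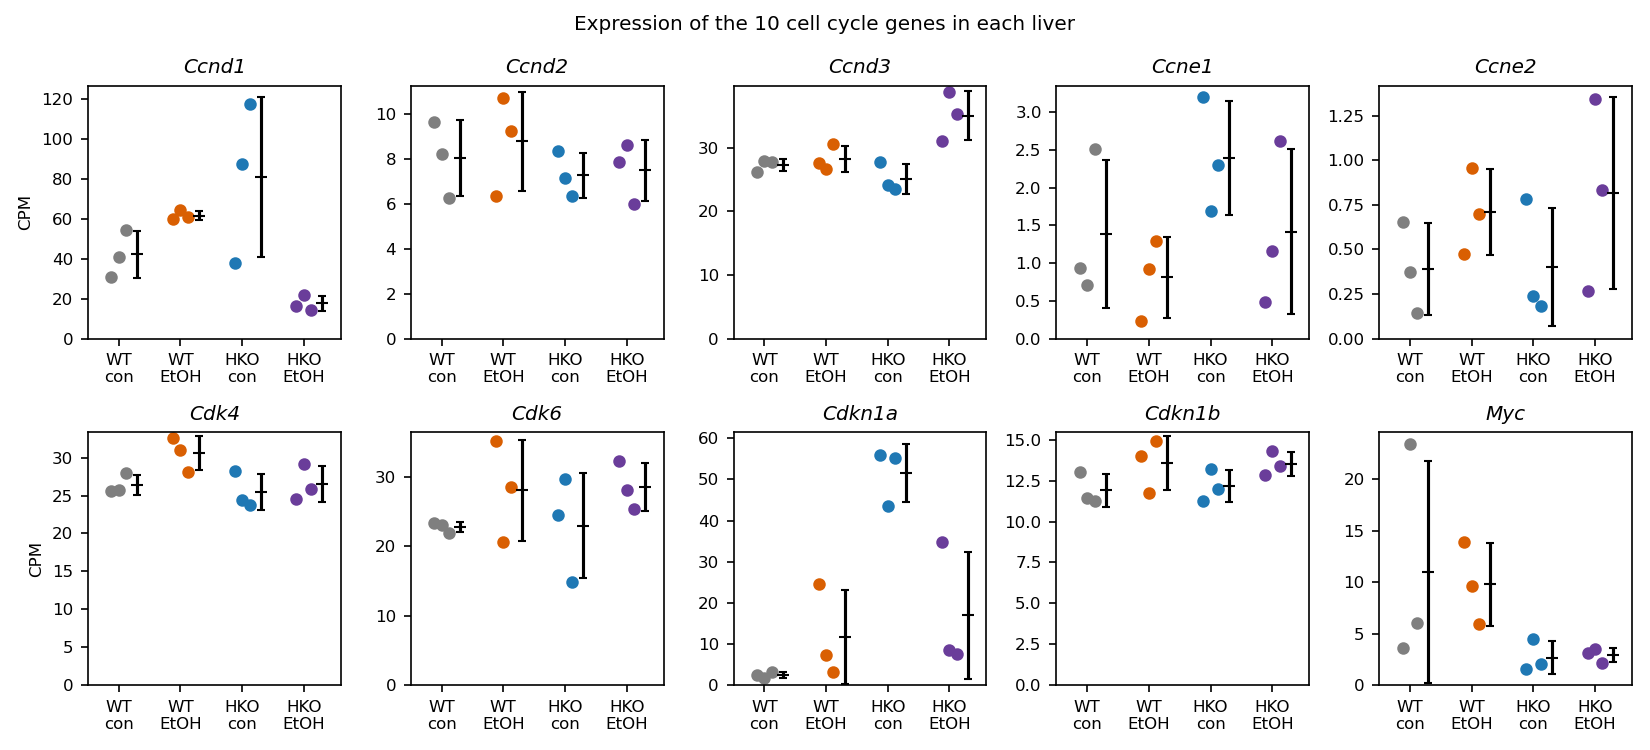
Expression (CPM) of the 10 genes in each liver, with 3 points per group and the mean ± SD beside them, on axes that start at 0. *Ccnd1* was lowest in the 3 HKO-EtOH livers (14.4 to 21.8 CPM) and *Cdkn1a* highest in the 3 HKO-con livers (43.6 to 55.9 CPM).

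**Figure D2:**
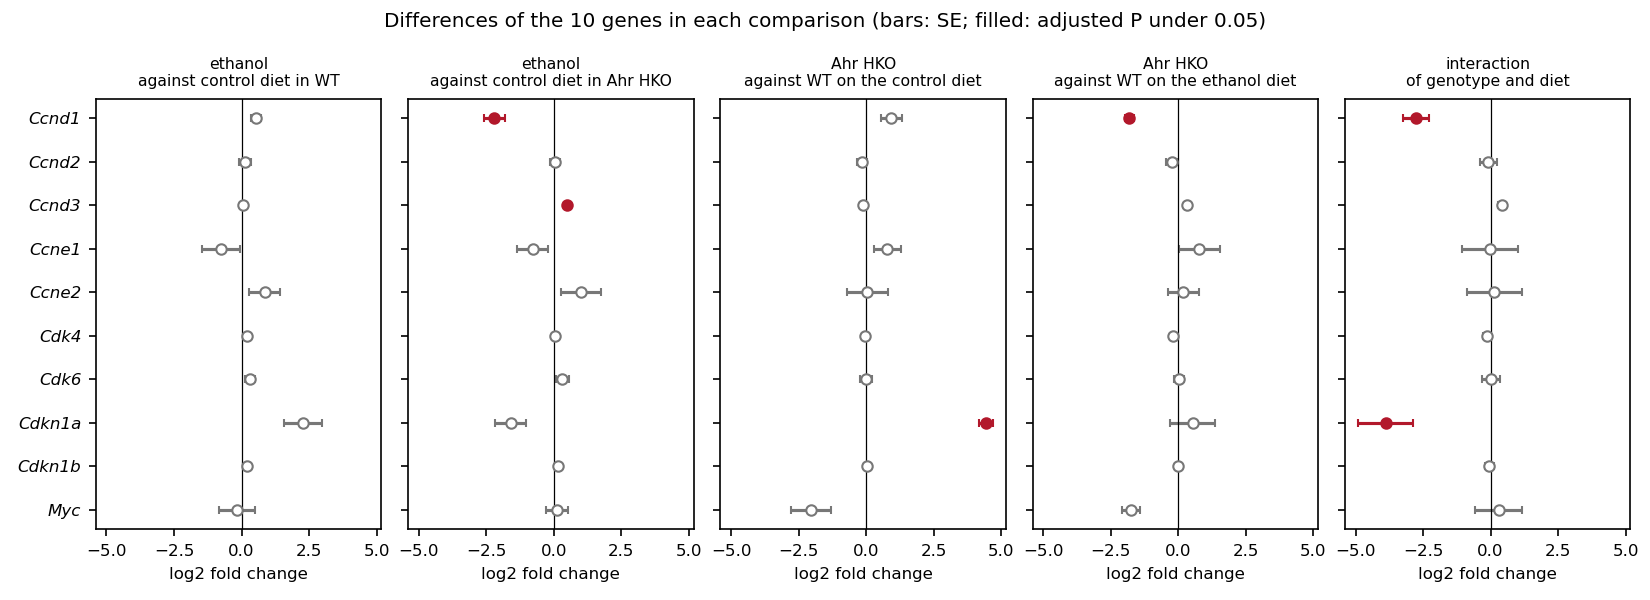
Log2 FC of the 10 genes in the 4 pairwise comparisons and the interaction, with bars for the SE and filled points for an adjusted *P* under 0.05. Filled points are *Ccnd1* in 3 panels (−2.20, −1.81 and −2.75), *Cdkn1a* in 2 panels (4.44 and −3.89) and *Ccnd3* in 1 panel (0.48).

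*Ccnd1* encodes cyclin D1, the D-type cyclin through which mitogens drive hepatocytes into the cycle (Entrez 12443, GRCm38 chr7:144929931-144939831). It was at 31.0, 41.0 and 54.4 CPM in WT-con, 59.7, 64.3 and 60.8 in WT-EtOH, 37.7, 87.4 and 117 in HKO-con, and 16.4, 21.8 and 14.4 in HKO-EtOH. The HKO-EtOH livers lay below every other liver, the WT-EtOH livers lay close together and above all WT-con livers, and the HKO-con livers spread widely, from within the WT-con range to above every WT liver. Under ethanol, *Ccnd1* fell 4.6-fold in the livers labelled *Ahr* HKO (log2 FC −2.20 ± 0.397 SE, adjusted *P* = 0.00812). In WT the difference had the other sign, with a log2 FC of 0.55 ± 0.189 that missed the threshold (adjusted *P* = 0.121), whereas DESeq2 called it (adjusted *P* = 0.0438). The diet difference differed between the genotypes, with an interaction of −2.75 ± 0.48 (adjusted *P* = 0.00316).

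Between the genotypes on ethanol, *Ccnd1* was 3.51-fold lower in the livers labelled *Ahr* HKO (log2 FC −1.81 ± 0.159 SE, adjusted *P* = 0.00897). The difference on the control diet was 0.94 ± 0.396 with an adjusted *P* of 0.115, and the groups overlapped through HKO-con liver 1. Without it the log2 FC was 1.29 and the gene was called (adjusted *P* = 0.0153). With all livers DESeq2 called it as well (adjusted *P* = 0.0308). Leaving out any single liver kept *Ccnd1* called in the ethanol comparison in *Ahr* HKO (log2 FC −2.53 to −1.83 in 6 fits), in the genotype comparison on ethanol (−2.0 to −1.69 in 6 fits) and in the interaction (−3.10 to −2.38 in 12 fits).

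The sister gene *Ccnd3* encodes cyclin D3, which also activates CDK4 and CDK6 (chr17:47505051-47599689). Its levels were 26.2, 27.9 and 27.8 CPM in WT-con, 27.6, 26.7 and 30.5 in WT-EtOH, 27.8, 24.1 and 23.5 in HKO-con, and 31.1, 38.8 and 35.4 in HKO-EtOH. The 3 HKO-EtOH livers stood above the other 9, whose range was narrow. Under ethanol *Ccnd3* rose 1.4-fold in the livers labelled *Ahr* HKO (log2 FC 0.48 ± 0.117 SE, adjusted *P* = 0.0211). When 1 liver at a time was removed, 2 of 6 fits kept the call, and it was lost without HKO-con liver 2 or 3 or HKO-EtOH liver 2 or 3 (adjusted *P* at most 0.0675, log2 FC 0.40 to 0.57 over the 6 fits). In WT the log2 FC under ethanol was 0.05 ± 0.0919 (adjusted *P* = 0.773), and the interaction, 0.43 ± 0.145, had an adjusted *P* of 0.0533. The call under ethanol in *Ahr* HKO was also lost with limma on log2(FPKM + 1) (adjusted *P* = 0.0507), while the interaction was called with DESeq2 (adjusted *P* = 0.0358), upper-quartile scaling (0.0477) and limma on quantile-normalized FPKM (0.0452).

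*Ccnd2*, which encodes cyclin D2 (chr6:127125162-127152188), ranged from 6.28 to 10.7 CPM over the 12 livers. Its log2 FC lay between −0.23 and 0.13 in the 5 comparisons, and no comparison called it (lowest adjusted *P* = 0.598). Its groups overlapped in each of the 4 pairwise comparisons.

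The makeup of the D-type cyclins was compared next. Per length of transcript, *Ccnd1* made up 35.4%, 41.1% and 48.7% of the summed FPKM of the 3 D-type cyclins in WT-con, and 51.3%, 52.5% and 48.4% in WT-EtOH. It made up 39.2%, 63.2% and 70.5% in HKO-con and 20.2%, 21.4% and 16.7% in HKO-EtOH. The HKO-EtOH share (19.5% ± 2.44 SD, n = 3) lay below that of each other group without overlap. Against the HKO-con mean of 57.6% ± 16.4 the difference was −38.2 percentage points, with a two-sided exact permutation *P* of 0.1, the smallest that 3 against 3 livers allow. Against the WT-EtOH mean of 50.8% ± 2.11 it was −31.3 points, again with an exact permutation *P* of 0.1. The share in WT-EtOH exceeded that in WT-con (41.7% ± 6.64) by 9.03 points, with an exact permutation *P* of 0.2. In HKO-EtOH *Ccnd3* was the leading D-type cyclin in each liver, and it also led in WT-con livers 1 and 2 and in HKO-con liver 1. *Ccnd1* led in WT-con liver 3, in the WT-EtOH livers and in HKO-con livers 2 and 3.

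**Figure D3:**
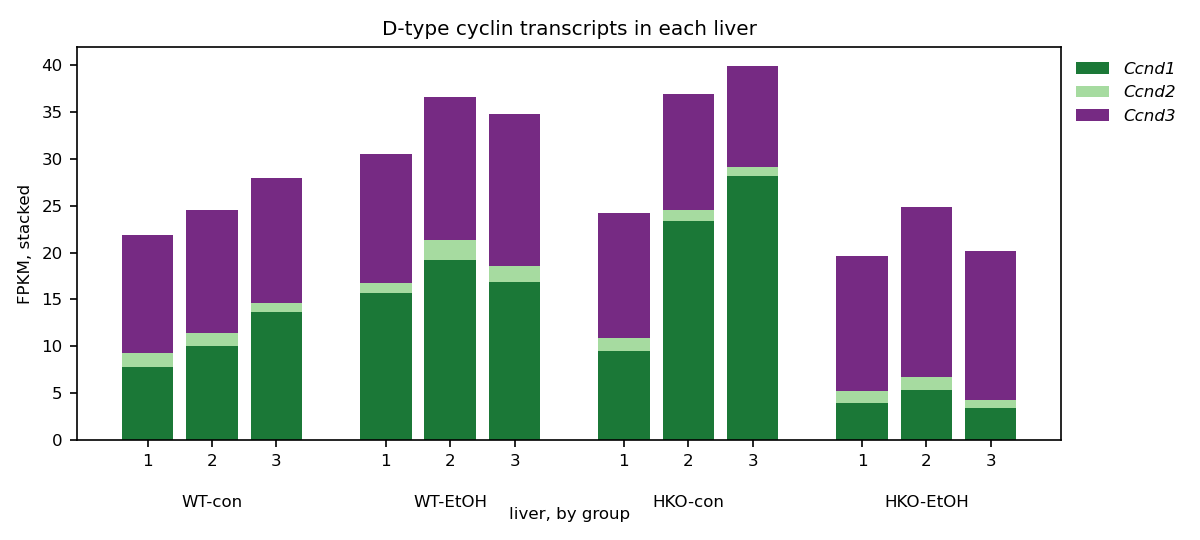
FPKM of *Ccnd1*, *Ccnd2* and *Ccnd3* stacked for each of the 12 livers, on an axis that starts at 0. The *Ccnd1* part is smallest in the 3 HKO-EtOH livers, where it made up 16.7% to 21.4% of the bar.

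*Cdk4* encodes the main kinase partner of the D-type cyclins in the liver (chr10:127063535-127067288). It was at 25.6, 25.7 and 27.96 CPM in WT-con, 32.6, 31.0 and 28.1 in WT-EtOH, 28.2, 24.4 and 23.8 in HKO-con, and 24.5, 29.1 and 25.8 in HKO-EtOH. The WT-EtOH livers lay just above the WT-con livers (log2 FC 0.21 ± 0.0954 SE, adjusted *P* = 0.216), and the other groups overlapped. *Cdk6*, the related kinase (chr5:3341004-3531008), ranged from 14.8 CPM in HKO-con liver 3 to 35.2 CPM in WT-EtOH liver 1. Its log2 FC lay between 0.01 and 0.32, with no call (lowest adjusted *P* = 0.348). Neither kinase was called by edgeR in any of the 5 comparisons. Under ethanol in WT, *Cdk4* was called by limma on log2(FPKM + 1) (adjusted *P* = 0.0437) and on log2(FPKM + 0.1) (0.0422).

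The E-type cyclins, which activate CDK2 at the start of S phase, had the lowest mean CPM of the 10 genes in each group. *Ccne1* (chr7:38097984-38107490) was at 0.939, 0.714 and 2.51 CPM in WT-con, 0.227, 0.922 and 1.29 in WT-EtOH, 3.20, 1.69 and 2.30 in HKO-con, and 0.482, 1.16 and 2.62 in HKO-EtOH. The groups overlapped in each of the 4 pairwise comparisons, and its log2 FC lay between −0.78 and 0.79 (lowest adjusted *P* = 0.269). The HKO-con livers were above WT-con livers 1 and 2, and without WT-con liver 3 the log2 FC on the control diet was 1.54 and called (adjusted *P* = 0.0354). *Ccne2* (chr4:11190433-11204779) stayed between 0.143 and 1.34 CPM, a few times the level of 3 counts at the lower end. Its log2 FC under ethanol was 0.86 ± 0.582 in WT and 1.00 ± 0.745 in *Ahr* HKO, with no call. Differences in *Ccne2* of that size could not be told from the spread between livers.

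*Cdkn1a* (chr17:29090979-29100722) showed the widest range of the 10 genes. It was at 2.36, 1.61 and 3.19 CPM in WT-con, 24.6, 7.30 and 3.20 in WT-EtOH, 55.9, 43.6 and 55.3 in HKO-con, and 34.7, 8.55 and 7.58 in HKO-EtOH. The 3 HKO-con livers were the highest of all 12, the 3 WT-con livers the lowest, and in each ethanol group liver 1 stood far above the other livers. Between the genotypes on the control diet, *Cdkn1a* was 21.7-fold higher in the livers labelled *Ahr* HKO (log2 FC 4.44 ± 0.255 SE, adjusted *P* = 0.000444). The call held whichever liver was removed (log2 FC 4.21 to 4.71 in 6 fits).

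Under ethanol *Cdkn1a* differed in opposite directions in the 2 genotypes, with neither comparison past the threshold by edgeR. In WT the log2 FC was 2.29 ± 0.706 (adjusted *P* = 0.0907), and the WT-EtOH livers lay above the WT-con livers, liver 3 at 3.20 CPM against a highest WT-con value of 3.19. Without WT-EtOH liver 1 the log2 FC was 1.14 (adjusted *P* = 0.151), and without WT-EtOH liver 3 it was 2.74 and called (adjusted *P* = 0.0373). With all livers DESeq2 called this difference (adjusted *P* = 0.0406). In the livers labelled *Ahr* HKO the log2 FC was −1.60 ± 0.565 (adjusted *P* = 0.0681), with no overlap between the groups. Without HKO-EtOH liver 1 it was −2.68 and called (adjusted *P* = 0.0026), and with all livers the 3 limma fits called it (adjusted *P* = 0.0298 to 0.0319). The interaction was −3.89 ± 1.02 (adjusted *P* = 0.02). It was called in 11 of 12 fits with 1 liver removed, and without WT-con liver 2 its adjusted *P* was 0.052. Between the genotypes on ethanol the log2 FC was 0.54 ± 0.834 (adjusted *P* = 0.745). Without HKO-EtOH liver 1 that value was −0.53, and without WT-EtOH liver 1 it was 1.69, with no call either way.

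*Cdkn1b*, the other Cip/Kip inhibitor of the 10 (chr6:134920401-134925525), varied little. Its 12 livers ranged from 11.2 to 14.96 CPM, its log2 FC lay between −0.04 and 0.19, and no comparison called it (lowest adjusted *P* = 0.321). Of the 5 other CDK inhibitor genes tested, *Cdkn2c*, which encodes an inhibitor of CDK4 and CDK6, was lower in HKO-con than in WT-con (1.88 ± 0.26 against 4.35 ± 0.675 CPM, SD, n = 3, log2 FC −1.21, adjusted *P* = 0.00491). *Cdkn2d*, of the same INK4 family, had an interaction of 1.11 (adjusted *P* = 0.0301). No other gene of that list was called by edgeR, and DESeq2 called 2 of the 5 lower between the genotypes on ethanol, where 2 had an unadjusted *P* under 0.05.

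*Myc* (chr15:61985341-61990361) was at 3.6, 23.4 and 6.03 CPM in WT-con, 13.9, 9.60 and 5.89 in WT-EtOH, 1.52, 4.45 and 2.04 in HKO-con, and 3.16, 3.47 and 2.12 in HKO-EtOH. WT-con liver 2 stood far above its group, and the 6 livers labelled *Ahr* HKO lay at or below 4.45 CPM. On ethanol the livers labelled *Ahr* HKO lay below the WT livers without overlap (log2 FC −1.74 ± 0.337 SE, 3.35-fold), and the adjusted *P* was 0.063. Without WT-EtOH liver 3 the log2 FC was −2.01 and called (adjusted *P* = 0.0379), and with all livers DESeq2 called it (adjusted *P* = 3.86e-05), as did limma on log2(FPKM + 1) (0.0495) and on log2(FPKM + 0.1) (0.0399). With the control diet the log2 FC was −2.05 ± 0.735 (adjusted *P* = 0.074). It was −0.85 (adjusted *P* = 0.263) without WT-con liver 2, and −2.46 and called (adjusted *P* = 0.0459) without WT-con liver 1, and a single fit of all 12 libraries also called it (adjusted *P* = 0.0316). The diet differences were −0.17 ± 0.66 in WT and 0.13 ± 0.413 in *Ahr* HKO. The 11 tested genes of the wider Myc network included *Mlx*, *Mlxip* and *Mlxipl*. Among the 11, *Max* rose in the livers labelled *Ahr* HKO on the control diet (log2 FC 0.60, adjusted *P* = 0.00385). *Mxi1*, which encodes an antagonist of Myc, fell in the same comparison (log2 FC −0.58, adjusted *P* = 0.00977), and *Mlxip* rose (0.78). There 15.3% of all tested genes were higher and 14.4% lower. Under ethanol in *Ahr* HKO, *Mlxipl*, which encodes the sugar-sensing factor ChREBP, rose by 1.10 and *Mxi1* by 0.34. None of the 11 was called lower, but only 5 had a positive log2 FC and the median was −0.06. Among all tested genes 15% rose and 16.1% fell there.

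The order of the 10 genes was compared in FPKM, which is scaled by transcript length. In WT-con *Cdk4* led with 18.5 ± 1.07 (SD, n = 3), followed by *Ccnd3* with 13.0 ± 0.414 and *Ccnd1* with 10.5 ± 2.96, which overlapped. *Cdkn1a* was eighth there, at 1.17 ± 0.408 FPKM. In HKO-con *Cdkn1a* had the highest mean, at 25.8 ± 2.47 FPKM, and it overlapped with *Ccnd1* (20.3 ± 9.68), which overlapped with *Cdk4* (18.2 ± 2.00). In WT-EtOH the order was *Cdk4* (24.1 ± 2.07), then *Ccnd1* (17.3 ± 1.82) and *Ccnd3* (15.1 ± 1.26), which overlapped. In HKO-EtOH *Cdk4* (17.9 ± 1.84) and *Ccnd3* (16.1 ± 1.89) overlapped at the top, and *Ccnd1* came after *Cdkn1a* and *Cdkn1b* with 4.23 ± 1.01. *Ccne2* was the lowest in all 4 groups, at 0.12 to 0.243 FPKM on average. Deposited TPM values gave the same order in each group.

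Across the 12 livers, *Ccnd1* and *Ccnd3* ran in opposite directions (Pearson r = −0.795, Spearman rho = −0.755 on log2 CPM), and after the group means were removed r was −0.288. The genes whose profile was most like that of each called gene were sought among 11880 genes with a mean count of at least 50. For *Ccnd1* they were *Gucy1a3* (r = 0.941, rho = 0.937, within-group r = 0.773), which encodes a subunit of soluble guanylate cyclase, *Nid1* (r = 0.925), which encodes a basement membrane protein, and *Mtmr2* (r = 0.914), a lipid phosphatase gene. For *Ccnd3* they were *Ing4* (r = 0.948), *Ptov1* (r = 0.945) and *Brwd1* (r = 0.935). For *Cdkn1a* they were *Mettl16* (r = 0.943), *S100a10* (r = 0.942) and *Ahr* itself (r = 0.931, rho = 0.972, within-group r = 0.688). These values describe 12 libraries in 4 groups that share their depth and scaling, and 3 of the 9 genes were also among the top 3 by rho.

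Next, the genes that read out the G1 machinery were examined. Of 16 genes for Rb proteins, E2F and DP factors, 2 fell under ethanol in WT, *Tfdp2* (log2 FC −0.70) and *Rbl2* (−0.65). There 4.48% of all tested genes fell. In *Ahr* HKO under ethanol, 2 rose and 3 fell, beside 15% and 16.1% of all tested genes. *E2f1*, an activator of S phase genes, rose there from 2.10 ± 0.321 to 4.57 ± 0.489 CPM (SD, n = 3, log2 FC 1.12, adjusted *P* = 0.00616), and *Tfdp2*, which encodes an E2F partner, rose by 0.92. *E2f8*, a repressor of the family, fell from 10.4 ± 0.503 to 3.35 ± 0.574 CPM (log2 FC −1.64), and *E2f4* (−0.44) and *Tfdp1* (−0.32) fell as well. On the control diet, *E2f1* (−0.96), *Tfdp2* (−1.38) and *Rbl2* (−0.64) were lower and *E2f4* (0.63) and *Tfdp1* (0.61) higher in the livers labelled *Ahr* HKO. No gene of this list was called by edgeR between the genotypes on ethanol, where 3 had an unadjusted *P* under 0.05 and DESeq2 called 1.

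Of 17 genes for the CDK2 module and the turnover of cyclins and inhibitors, 1 rose and 3 fell under ethanol in WT, 2 rose and 5 fell in *Ahr* HKO, and 6 were higher and 2 lower in HKO-con than in WT-con. The matching shares of all tested genes were 4.24% and 4.48%, 15% and 16.1%, and 15.3% and 14.4%. *Skp2*, which encodes the F-box protein that targets p27 for degradation, fell under ethanol in WT (log2 FC −1.58, adjusted *P* = 0.0207) and in *Ahr* HKO (−1.17, adjusted *P* = 0.0443). Its level was 1.66 ± 0.122 CPM in WT-con and 0.555 ± 0.118 in WT-EtOH. *Btrc*, another gene of this machinery, fell under ethanol in WT (−0.69), and *Cdc34* rose (0.52). Among genes linked to the turnover of cyclin D1, *Fbxo4* fell under ethanol in *Ahr* HKO (−1.25, adjusted *P* = 0.00281), as did *Ambra1* (−0.70, adjusted *P* = 0.00281), and both were higher in HKO-con than in WT-con (0.99 and 0.60). *Fbxo31*, another of these genes, fell in WT under ethanol from 105 ± 6.35 to 47.8 ± 4.86 CPM (log2 FC −1.13, adjusted *P* = 0.0024) and on ethanol was higher in the livers labelled *Ahr* HKO (1.16, adjusted *P* = 0.0379). *Cdc25a*, a phosphatase gene that activates CDK2, was higher in HKO-con than in WT-con (0.93) and fell under ethanol in *Ahr* HKO (−0.84). *Wee1*, the kinase that opposes it, moved the other way in these comparisons (−1.53 and 1.43). *Cdk2* rose under ethanol in *Ahr* HKO by a log2 FC of 0.68 (adjusted *P* = 0.0177), and *Cdk7*, the kinase that activates it, fell by 0.66.

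Of 28 S phase genes tested, 5 rose and 0 fell under ethanol in *Ahr* HKO, where *Ccnd1* fell and where 15% of all tested genes rose and 16.1% fell. *Tk1*, which encodes thymidine kinase, rose from 4.52 ± 0.853 CPM in HKO-con to 32.1 ± 4.33 in HKO-EtOH (log2 FC 2.83 ± 0.176 SE, 3 livers each, edgeR adjusted *P* = 0.000849), and *Cdc45* (1.37), *Lig1* (0.94), *Rfc3* (0.67) and *Dut* (0.54) rose too. On the control diet 6 were lower and 1 higher in the livers labelled *Ahr* HKO, where *Cdkn1a* was high. The shares of all tested genes were 14.4% and 15.3%. Among the lower genes were *Tk1* (−2.26), *Pole* (−1.94), *Lig1* (−1.35), *Prim1* (−1.01) and *Dut* (−0.57), with *Fen1* (0.69) the other way. In WT under ethanol, *Tk1* (−0.78) and *Cdt1* (−0.71) fell and none rose. *Tk1* was the sole gene of the list called between the genotypes on ethanol (1.35, adjusted *P* = 0.0118). The median log2 FC of the list was −0.42 on the control diet between genotypes and 0.09 under ethanol in *Ahr* HKO, beside −0.00443 and −0.0173 over all tested genes. The second of these medians turned to −0.01 with limma on log2(FPKM + 1). *Pcna* had group means between 20.0 and 21.6 CPM and was not called.

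Genes of G2 and mitosis were low. Summed over 28 genes they came to 16.2 to 24.9 CPM in WT-con, 17.9, 42.7 and 14.1 in WT-EtOH, 13.4 to 16.5 in HKO-con and 9.74 to 12.4 in HKO-EtOH. WT-EtOH liver 2 stood far above the rest, and the HKO-EtOH livers lay below all others. Of 25 tested, 1 rose and 5 fell under ethanol in *Ahr* HKO, beside 15% and 16.1% of all tested genes. *Mki67*, a marker of cycling cells, fell from 1.52 ± 0.131 to 0.577 ± 0.0518 CPM (log2 FC −1.39, adjusted *P* = 0.00804), and *Top2a* fell from 1.11 ± 0.458 to 0.284 ± 0.0328 CPM (−1.95, adjusted *P* = 0.0124). *Cdc20* (−1.72) and *Prc1* (−2.96) fell as well, and *Ccnb1* was at 0 counts in all 3 HKO-EtOH livers, at least 6.6-fold lower than in HKO-con when set at 3 counts per library. *Birc5* rose (2.22, adjusted *P* = 0.0246). Between the genotypes on ethanol, the median of the list was −1.47 and 24 of the 25 genes were lower in the livers labelled *Ahr* HKO, but none was called by edgeR. In that comparison 13 had an unadjusted *P* under 0.05 and DESeq2 called 7 lower. *Cenpa* (−1.44) and *Hmmr* (−3.13) were lower in HKO-con than in WT-con.

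Markers of other liver cells moved with these comparisons. The 12 Kupffer cell and macrophage markers summed to 671, 561 and 714 CPM in WT-con, 557, 1240 and 509 in WT-EtOH, 1390, 926 and 509 in HKO-con, and 325, 363 and 397 in HKO-EtOH. Within HKO-con these sums ran in the reverse order of *Ccnd1*. All 12 markers fell under ethanol in *Ahr* HKO, where *Ccnd1*, the mitotic genes and 16.1% of all tested genes also fell. EdgeR called none of the 12 in the other 3 pairwise comparisons. On ethanol, though, all 12 were lower in the livers labelled *Ahr* HKO, 11 of them at an unadjusted *P* under 0.05, and DESeq2 called 9. Of 10 endothelial markers, 5 fell under ethanol in *Ahr* HKO, beside 16.1% of all tested genes. Their sum in HKO-EtOH was 296 to 329 CPM against 442 to 475 in HKO-con. The liver with the highest mitotic sum, WT-EtOH liver 2, also had the highest Kupffer cell and endothelial sums of its group (1240 and 605 CPM). Cholangiocyte markers, whose sum was mostly *Spp1*, were at 476, 180 and 44.5 CPM in HKO-con livers 1, 2 and 3, the reverse of the order of *Ccnd1* in these livers, and *Cftr* and *Sctr* were at or near 0 in all groups. Neutrophil markers summed to 1.68 to 3.33 CPM in WT-con, 4.81 to 8.38 in WT-EtOH, 8.19 to 9.92 in HKO-con and 2.71 to 4.2 in HKO-EtOH, with *Mpo* and *Ly6g* at or near 0. Lymphocyte markers summed to 6.34 to 9.07 CPM in HKO-EtOH and 11 to 25.9 CPM in the other livers. Stellate cell markers summed to 272 to 366 CPM in WT-con, 376 to 431 in WT-EtOH, 256 to 282 in HKO-con and 295 to 346 in HKO-EtOH. Erythroid markers summed to 457 to 892 CPM in WT-con, 207 to 437 in WT-EtOH, 142 to 289 in HKO-con and 367 to 493 in HKO-EtOH. In whole livers, fewer cells of a type and less RNA per cell cannot be told apart, and the part of these cells in the differences of *Ccnd1*, *Cdkn1a* and the mitotic genes was not tested.

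Targets of p53, the factor best known for inducing *Cdkn1a*, were tested as 24 genes other than *Cdkn1a*. On the control diet 5 were higher and 1 lower in the livers labelled *Ahr* HKO, beside 15.3% and 14.4% of all tested genes. *Btg2*, an antiproliferative gene, was at 6.01 ± 0.957 CPM in WT-con and 30.3 ± 12.4 in HKO-con (log2 FC 2.34, adjusted *P* = 0.00315), and *Aen* (1.30), *Zmat3* (0.93), *Fas* (0.81) and *Trp53inp1* (0.80) were higher too. *Gadd45a* was lower (−1.49, adjusted *P* = 0.0205). Under ethanol in *Ahr* HKO 5 fell, *Btg2* (−1.57), *Aen* (−1.28), *Polk* (−0.78), *Zmat3* (−0.77) and *Fas* (−0.58), and *Trp53inp1* (0.77) and *Dcxr* (0.70) rose. There 16.1% of all tested genes fell and 15% rose. In WT under ethanol 4 rose and 0 fell, namely *Trp53inp1* (1.86), *Bax* (0.63), *Mdm2* (0.55) and *Perp* (0.50). Among all tested genes 4.24% rose and 4.48% fell there. *Mdm2*, the classical feedback target, was at 22.7 ± 1.73 CPM in WT-con and 28.3 ± 5.54 in HKO-con, a difference that was not called. The interaction called 9 of the 24 lower and 1 higher, beside 22.3% of all genes in either direction.

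The FOXO factors also induce *Cdkn1a* and *Cdkn1b*. Of 15 FOXO genes and targets, 3 rose and 1 fell under ethanol in WT, and 5 rose and 1 fell in *Ahr* HKO. The matching shares of all tested genes were 4.24% and 4.48%, and 15% and 16.1%. *Igfbp1*, a liver target of FOXO1, rose under ethanol in WT (log2 FC 3.64, adjusted *P* = 0.0137) and was higher in HKO-con than in WT-con (2.36, adjusted *P* = 0.0326). *Foxo1* rose under ethanol in WT and in *Ahr* HKO (0.37 and 0.76), as did *Pck1* (1.51 and 1.33), while *Rictor* fell in both (−0.46 and −0.38). *Klf15* (1.48), *Foxo4* (0.56) and *Sod2* (0.32) rose under ethanol in *Ahr* HKO. *Bcl6* was higher in the livers labelled *Ahr* HKO on ethanol (3.22, adjusted *P* = 0.0035).

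Targets of Myc were higher in HKO-con livers although *Myc* was not. Of 26 target genes, mostly for ribosome production and nucleotide synthesis, 19 were higher and 1 lower in the livers labelled *Ahr* HKO on the control diet (median log2 FC 0.67), where the log2 FC of *Myc* itself was −2.05. In that comparison 15.3% of all tested genes were higher and 14.4% lower. *Nop58*, which encodes a core protein of small nucleolar particles, was at 9.38 ± 0.764 CPM in WT-con and 36.5 ± 6.33 in HKO-con (log2 FC 1.96 ± 0.142 SE, adjusted *P* = 0.000718). *Cad*, of pyrimidine synthesis, rose by 1.63 and *Gnl3* by 1.07. Under ethanol in *Ahr* HKO, 15 fell and 2 rose (median −0.52), with *Nop58* at −1.60, *Ldha* at −1.44 and *Cad* at −1.08, whereas *Tfrc* (1.27) and *Shmt2* (0.84) rose. Among all tested genes 16.1% fell and 15% rose there. In WT under ethanol 5 rose, *Tfrc* (1.85), *Nop58* (0.87), *Gnl3* (0.69), *Nop56* (0.67) and *Nop2* (0.45), and 0 fell. The shares of all tested genes were 4.24% and 4.48%. Between the genotypes on ethanol edgeR called no target, 5 had an unadjusted *P* under 0.05 and DESeq2 called 2. The summed level was 2950 to 3320 CPM in HKO-con and 1620 to 2040 CPM in the other 9 livers.

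**Figure D4:**
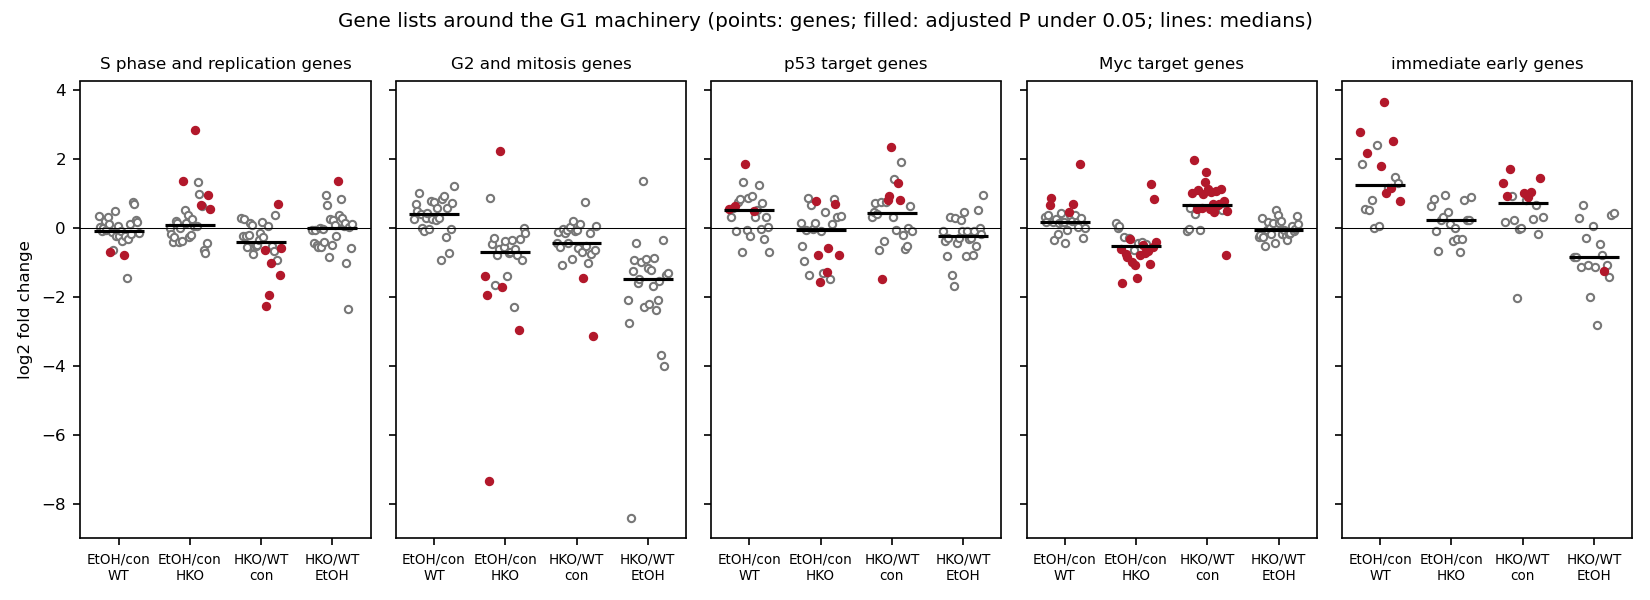
Log2 FC of the tested genes of 5 lists in the 4 pairwise comparisons, with 1 point per gene, filled where the adjusted *P* was under 0.05, and a line at the median. The medians of the Myc targets were 0.67 for HKO-con against WT-con and −0.52 for ethanol in *Ahr* HKO, and the lowest points in the G2 and mitosis panel are *Ccnb1*, whose fitted value rests on 0 counts in HKO-EtOH and is no measure of size.

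Upstream of the G1 genes, the immediate early genes, which mitogens and stress induce within minutes, were examined as 18 tested genes. Under ethanol in WT 8 rose and 0 fell, beside 4.24% and 4.48% of all tested genes. The largest were *Atf3* (log2 FC 3.64), *Fos* (2.77), *Nr4a1* (2.53) and *Jun* (2.18), and *Jun* went from 6.44 ± 0.82 to 29.2 ± 8.33 CPM. On the control diet 7 were higher in the livers labelled *Ahr* HKO, beside 15.3% of all tested genes. Among the 7 were *Jun* (1.71, 21.1 ± 5.90 CPM in HKO-con), *Dusp1* (1.45) and *Fos* (1.29). Under ethanol in *Ahr* HKO edgeR called none of the 18, 3 had an unadjusted *P* under 0.05 and DESeq2 called 1 higher and 1 lower. Between the genotypes on ethanol edgeR called *Klf6*, which was lower (−1.25, adjusted *P* = 0.0357), where 0.378% of all tested genes were called lower. The median log2 FC of the 18 was −0.85 there, and 5 of them were higher in the livers labelled *Ahr* HKO. *Jun* (−1.13), *Atf3* (−2.82) and *Ier3* (−1.14) were lower without overlap between the groups but were not called. The interaction called 6, all lower, including *Atf3* (−3.63) and *Jun* (−2.84), where 11.1% of all tested genes were called lower.

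Of 24 genes for hepatocyte growth signals, 1 rose and 8 fell under ethanol in *Ahr* HKO, and 7 were higher and 3 lower in HKO-con than in WT-con. The matching shares of all tested genes were 15% and 16.1%, and 15.3% and 14.4%. *Egfr*, the receptor of the hepatocyte mitogens EGF and TGFα, was at 473 ± 129 CPM in WT-con, 237 ± 149 in WT-EtOH, 1090 ± 145 in HKO-con and 473 ± 176 in HKO-EtOH. It was higher in HKO-con than in WT-con (log2 FC 1.21, adjusted *P* = 0.00658) and fell under ethanol in *Ahr* HKO (−1.21, adjusted *P* = 0.0203). *Tgfb1*, which encodes a growth inhibitor of hepatocytes, moved in the same directions (0.56 and −0.91), as did *Tgfbr2*, a gene of its receptor (0.44 and −0.70). *Erbb3* fell under ethanol in WT (−1.12) and in *Ahr* HKO (−0.72). *Gadd45b*, an early gene of liver regrowth, rose under ethanol in WT from 1.08 ± 0.313 to 8.64 ± 1.61 CPM (3.00, adjusted *P* = 0.00201) and was lower in HKO-EtOH than in WT-EtOH (−1.74, adjusted *P* = 0.0484).

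Genes on the opposite strand overlap the exons of *Ccnd1*, *Ccnd3*, *Ccne2* and *Cdk4* in the GENCODE annotation, over 1100 of 4709, 361 of 8775, 609 of 3495 and 641 of 3249 bases. The kit kept the strand, and whether the counting used it is not given in the sources used here, so reads in these stretches may belong to either gene. Each liver came from its own mouse by the study's methods, which state that 3 were selected at random from each group. The larger group sizes listed there match the groups named for the lipidomics, which are WT, WT on ethanol and *Ahr* HKO on ethanol. No larger group is documented for HKO-con, and whether its mice formed a separate cohort is not given in the sources used here. *P* values set the group differences against the spread between the mice sequenced.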

How the data were processed

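RNA-seq of 12 livers was used. Poly-A libraries were made with a stranded kit and sequenced paired-end by the authors, and per the submitters' processing notes the tools were FastQC 0.11.7, Trimmomatic 0.38, HISAT2 2.1.0, Bowtie2 2.3.4.1 and StringTie 1.3.4d with build mm10. The deposited table holds whole-number read counts per gene, not normalized, with FPKM and TPM values that the authors computed for the same genes. It holds a row for 24532 genes, of which 17220 had a count.

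Counts were tested with the edgeR quasi-likelihood test (edgeR 4.0.16, R 4.3.3) after filterByExpr over the 4 groups and TMM scaling, with each pair of groups fitted on its own 6 libraries and the interaction on all 12. SE is the log2 FC divided by the square root of F. FPKM served for levels between genes and for an alternative limma fit, and TPM for a check of order. Calls needed an adjusted *P* under 0.05. Alternatives were DESeq2 1.42.0, limma 3.58.1 with pseudocounts of 1 and 0.1, other filters, scalings and thresholds, a replicate block, and leaving out each liver. The tests were tried on simulated data. SE and SD include the spread between livers, whereas the level of 3 counts covers counting error only.

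The 10 genes and the other lists were chosen with earlier results of these data known. The rule for named genes took the 10, at most 6 called genes per list with a mean count of at least 50, and the 3 genes most correlated with each called gene. Other genes named in a list were picked after their values were seen. Promoter windows came from RefSeq (GRCm38.p6).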

Additional observations from a re-analysis of the deposited data

Results flagged for a closer look

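*Ccnd1* and *Cdkn1a* are listed because the diet difference of each differed between the genotypes by a test of that difference. For *Ccnd1* the diet difference in livers labelled *Ahr* HKO minus that in WT was −2.75 on the log2 scale (SE 0.48, edgeR adjusted *P* = 0.00316), lower under ethanol in all 3 HKO-EtOH livers and higher in all 3 WT-EtOH livers than in any liver of their control group. For *Cdkn1a* it was −3.89 (SE 1.02, edgeR adjusted *P* = 0.02), with the same directions and no overlap in either genotype. No group has 4 or more livers, so no single liver was tested for standing apart. The cause of these differences was not tested.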

How the results depend on the processing

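No direction of a called value turned under any alternative that was run. *Ccnd1* under ethanol in *Ahr* HKO, between genotypes on ethanol and in the interaction, and *Cdkn1a* between genotypes on the control diet and in the interaction, were called in all alternatives other than the removal of a liver. Of the 10 genes, the count called under ethanol in WT was 2 with DESeq2, 1 with limma on log2(FPKM + 1) or log2(FPKM + 0.1), 1 at an adjusted *P* under 0.25 with an FC above 1.5, and 0 to 1 with a liver removed. Under ethanol in *Ahr* HKO it was 1 when an FC above 1.5 was also required, since *Ccnd3* rose 1.4-fold, 3 with limma on quantile-normalized FPKM or log2(FPKM + 0.1), which add *Cdkn1a*, and 1 to 3 with a liver removed. Between genotypes on the control diet it was 2 with DESeq2 or a single fit of 12 libraries, 3 at the looser threshold and 1 to 2 with a liver removed, and on ethanol 2 with DESeq2, both limma fits on unnormalized FPKM and the looser threshold, and 1 to 2 with a liver removed. *Myc* was the gene gained with the single fit and, on ethanol, with DESeq2 and these limma fits. The interaction gave 3 with DESeq2, upper-quartile scaling or quantile-normalized limma, which add *Ccnd3*, and 1 to 3 with a liver removed. Over all genes, the calls under ethanol in WT were 2354 with DESeq2, 1883 and 1959 with limma (pseudocounts 1 and 0.1), 1976 at the looser threshold and 360 to 1011 with a liver removed. Under ethanol in *Ahr* HKO they were 2588 to 3795 and between genotypes on the control diet 2630 to 3737 with a liver removed. Between genotypes on ethanol they were 1486 with DESeq2, 86 with quantile-normalized limma, 382 and 477 with the other limma fits, 575 with a single fit, 1688 at the looser threshold and 10 to 193 with a liver removed, the lowest without HKO-EtOH liver 3. Without normalization, FPKM moved the median log2 FC of all genes by −0.13 and −0.21 there, by 0.1 and 0.16 under ethanol in WT and by −0.14 and −0.24 in the interaction, and the share of calls that were higher went from 64.4% to 18.6% and 17.4%, from 48.6% to 79.6% and 79.4%, and from 50.2% to 23.4% and 23.5%. DESeq2 gave 46% on ethanol. The share of *Ccnd1* among D-type cyclins, taken in CPM and not FPKM, was 53.7% in WT-con, 62.5% in WT-EtOH and 29% in HKO-EtOH. The cause of these changes was not tested.

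Livers of a given number deviated together (r above 0.1) in 2 of 12 pairs. Both lay between the genotypes on ethanol, livers 1 (r = 0.178) and livers 2 (r = 0.133). The labels do not say whether livers of a number were handled together, and these values cannot decide it. With the replicate number as a block, 539 genes were called under ethanol in WT and 247 between genotypes on ethanol, and of the 10 genes 3 were called between genotypes on the control diet (*Ccnd1* and *Myc* gained) and 2 on ethanol (*Myc* gained). The block lost *Ccnd3* (adjusted *P* = 0.0667) and gained *Cdkn1a* (0.0402) under ethanol in *Ahr* HKO. Counts were lowest for *Ccne2*, at 0.143 CPM in its lowest liver, beside 0.0425 to 0.0676 CPM for 3 counts.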
